A study of Mus musculus with 15 samples.

Results

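The 9 genes described here mark eosinophils, basophils and mast cells. They were followed in spleen cells of mice carrying acute myeloid leukemia (AML) after an NRAS oncogene was switched off. They were chosen by gene symbol: every probe set that the platform annotation gives to Prg2, Prg3, Epx, Il5ra, Mcpt8, Cpa3, Hdc, Ms4a2 or Fcer1a alone. All 9 genes were measured, by 11 probe sets, among 18193 genes read by 34945 probe sets. Hdc and Ms4a2 had a pair of probe sets each and the other genes 1 each. A gene with several was represented by its brightest probe set, averaged over the 15 arrays.

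The RAS-OFF groups were NRASG12V/Mll-AF9 primary AML from mice given doxycycline, by intraperitoneal injection at the start and then in the drinking water, and hold 2 Affymetrix arrays each at 48, 60, 72, 84 and 96 h. The RAS-ON group was the same leukemia from vehicle-treated mice at 0 h, on 5 arrays. No vehicle arrays were among the later times, so NRAS state, doxycycline itself and time of sampling cannot be told apart. In both groups the cells came from spleens of SCID/Beige mice that had received the leukemia through the tail vein and reached over 100000 white cells per microlitre at 20 days. SCID/Beige hosts lack B and T lymphocytes but keep their own granulocytes and erythroid cells. The sources used here do not name the promoter driving NRAS, the number of separate leukemias or the animals' ages. Median intensities were 149.99 to 156.53, and precision is limited by how many arrays there are. The RAS-ON arrays formed 2 sets, arrays 1 to 3 and arrays 4 and 5, that differed in several of the 9 genes. For the mean of the RAS-OFF times and the slope, results of the 9 genes whose call depends on the set are given by set. Calls at single times are given against all 5 RAS-ON arrays, with some counts against each set. Changes of other genes are given against all 5 RAS-ON arrays only. Mpo, a myeloid granule enzyme gene, had log2 intensities of 12.59 ± 0.14 in RAS-OFF (SD, n = 10) and 13.90 ± 0.17 in RAS-ON arrays (SD, n = 5). Hoxa9, a homeobox gene that MLL fusions activate, was at 9.74 ± 0.14 in RAS-OFF and 9.98 ± 0.28 in RAS-ON arrays. Both genes were bright, but their levels alone do not tell leukemic cells from host cells of the spleen.

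Eosinophils, basophils and mast cells are granule-bearing cells of allergic and antiparasitic responses. Eosinophils store basic proteins and a peroxidase in their granules and depend on interleukin 5 for growth. Basophils and mast cells store histamine and proteases and are triggered through the high-affinity receptor for IgE. The lineages arise from myeloid progenitors under GATA and C/EBP transcription factors, and early granulocyte precursors can already carry transcripts of their granule proteins.

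The promoters show where a transcript of each gene that moved most begins. They also show whether letters that GATA or C/EBP factors are known to bind lie near those starts. RefSeq windows of build GRCm38.p6, 250 bases before to 50 after a transcript start, were given for 8 of the 9 genes; Prg2 was not among them. Both strands were searched for GATAA, a form of the core of a GATA site, and TTGCNNAA, the core of a C/EBP site. Other forms, such as GATAG, were not searched. Capitals mark matches. The 4 sequences are those of Prg3 (chr2:84987965-84988264, plus strand) and Epx (chr11:87875487-87875786, minus strand), which were higher in RAS-OFF arrays, of Hdc (chr2:126618629-126618928, minus strand), which was higher at the early times, and of Mcpt8 (chr14:56085148-56085447, minus strand), which was lower.
Prg3: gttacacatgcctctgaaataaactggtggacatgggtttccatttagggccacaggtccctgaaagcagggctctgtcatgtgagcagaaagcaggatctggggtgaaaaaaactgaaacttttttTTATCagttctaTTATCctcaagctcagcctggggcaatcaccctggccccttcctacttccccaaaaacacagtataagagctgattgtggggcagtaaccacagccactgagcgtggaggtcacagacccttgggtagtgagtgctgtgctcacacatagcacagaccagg
Epx: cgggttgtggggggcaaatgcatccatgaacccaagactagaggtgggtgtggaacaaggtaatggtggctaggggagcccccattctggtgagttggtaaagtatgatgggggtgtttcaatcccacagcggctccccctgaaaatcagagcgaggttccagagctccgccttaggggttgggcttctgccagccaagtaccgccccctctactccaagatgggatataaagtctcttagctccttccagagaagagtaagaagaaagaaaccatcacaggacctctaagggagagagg
Hdc: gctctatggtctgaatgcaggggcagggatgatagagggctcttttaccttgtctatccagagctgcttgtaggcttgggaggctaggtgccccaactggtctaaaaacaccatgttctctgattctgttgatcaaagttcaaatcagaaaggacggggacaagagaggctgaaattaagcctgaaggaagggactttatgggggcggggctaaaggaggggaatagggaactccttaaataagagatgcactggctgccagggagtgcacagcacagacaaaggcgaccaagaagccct
Mcpt8: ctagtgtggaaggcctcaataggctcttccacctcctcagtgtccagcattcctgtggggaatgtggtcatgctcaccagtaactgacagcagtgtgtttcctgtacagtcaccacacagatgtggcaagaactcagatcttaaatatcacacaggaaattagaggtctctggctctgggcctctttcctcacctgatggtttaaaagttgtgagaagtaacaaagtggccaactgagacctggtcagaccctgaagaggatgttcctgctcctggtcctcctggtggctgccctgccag

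GATAA was present in 5 of the 8 windows and in 25.4% of 32851 mouse promoter windows of the same length. In Prg3 it occurred as 2 copies on the other strand, at bases -123 to -119 and -111 to -107 from the start. Il5ra and Cpa3 each had 1 copy on the given strand, at -73 to -69 and at -45 to -41. Ms4a2, the gene of the IgE receptor's beta chain, had 3 copies, and Fcer1a had 1, at -92 to -88. The windows of Epx, Hdc and Mcpt8 did not hold GATAA, which does not exclude other forms of a GATA site. TTGCNNAA was present in Fcer1a alone of the 8 windows, at -118 to -111, and in 10.8% of all windows; it did not overlap the GATAA match there. Prg2 (chr2:84980461-84983632) and Prg3 (chr2:84988196-84996559) are neighbours, and Hdc (chr2:126593659-126624025) lies on the same chromosome. Epx lies at chr11:87863997-87875536, Il5ra at chr6:106710375-106749037, Mcpt8 at chr14:56082163-56085499, Cpa3 at chr3:20215616-20242209, Ms4a2 at chr19:11615517-11623790 and Fcer1a at chr1:173221269-173227232. The windows of Hdc and Mcpt8 lie inside these spans, so any start at the outer end of either gene was not searched.

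Over the mean of the 5 RAS-OFF times, 5 of the 9 genes were higher and 1 was lower than in RAS-ON arrays by limma at an adjusted p below 0.05. Of all 18193 genes, 20.1% were called higher and 28.7% lower. With each array centred on its median the split was 4 higher and 2 lower, with the mean of each gene's probe sets 5 and 3, and against RAS-ON arrays 4 and 5 alone 2 and 2. The 3 eosinophil granule genes and Hdc rose, the basophil protease gene Mcpt8 fell, and the small rise of Il5ra depended on the setting. The median change over all genes was -0.04 on the log2 scale. In spleen tissue of this kind, fewer cells of a type and less RNA per cell cannot be told apart. The values of every array are plotted by gene and time.

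**Figure D1:**
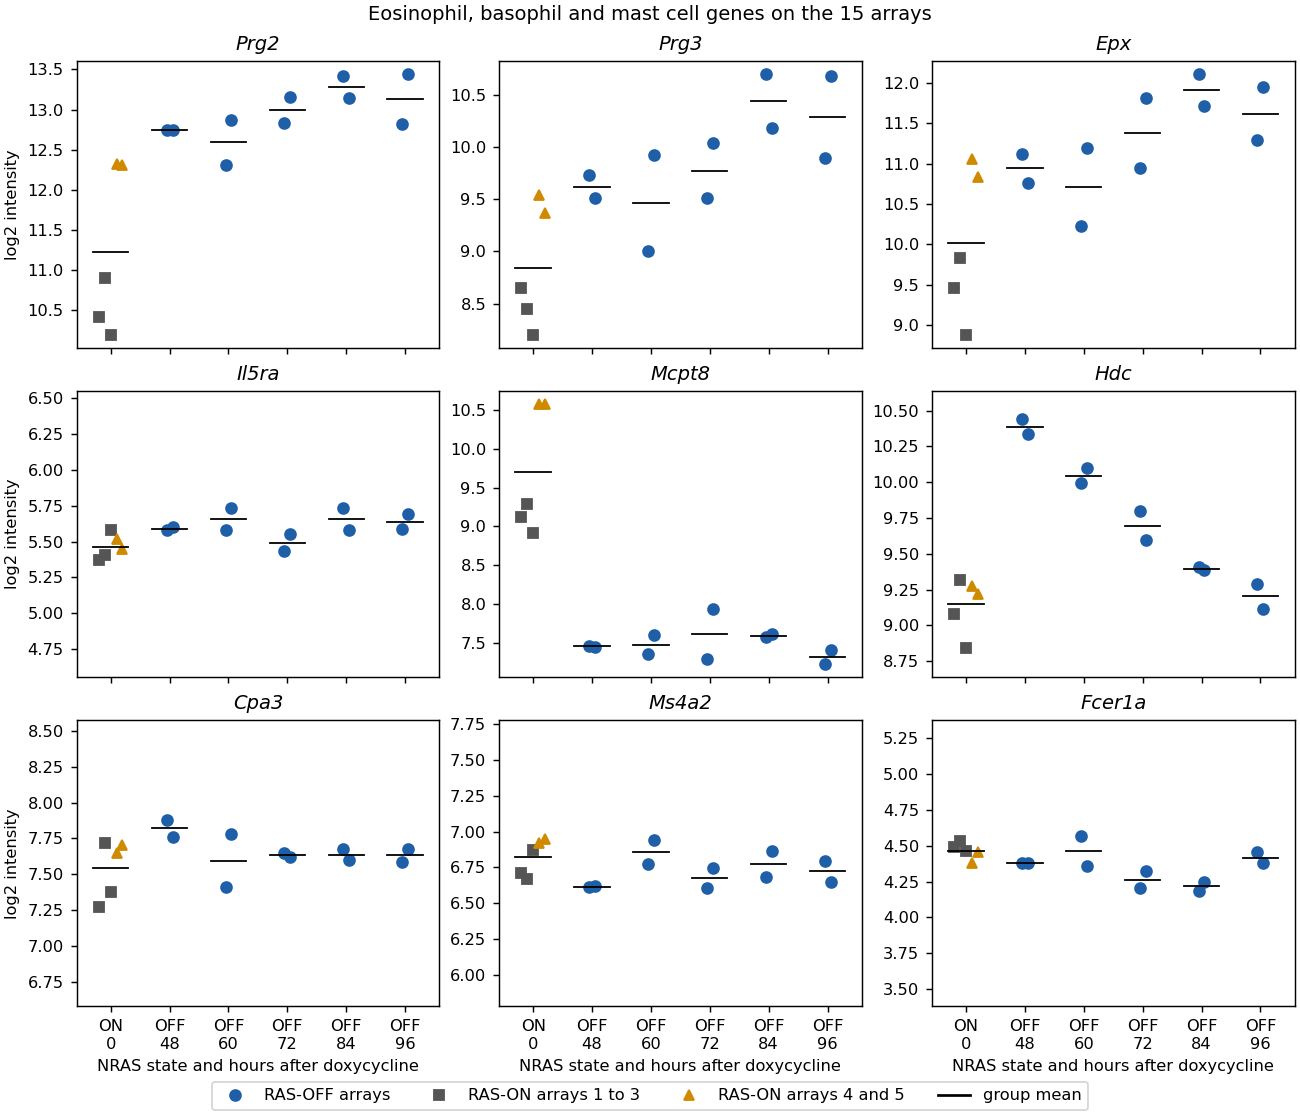
Log2 intensity (vertical axes, each at its own level and span) of the 9 genes on the 15 arrays, by NRAS state and hours after doxycycline (horizontal axis); squares are RAS-ON arrays 1 to 3, triangles RAS-ON arrays 4 and 5, circles RAS-OFF arrays and lines group means. Mcpt8 lies between 7.22 and 7.94 on all RAS-OFF arrays and above 8.9 on all RAS-ON arrays, Hdc is highest at 48 h, and Prg2, Prg3 and Epx sit higher on RAS-ON arrays 4 and 5 than on arrays 1 to 3.

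Prg2 encodes major basic protein, the main constituent of the eosinophil granule core. Its log2 intensity was 10.41, 10.90, 10.19, 12.33 and 12.31 on RAS-ON arrays 1 to 5 (0 h). The RAS-OFF pairs read 12.75 and 12.75 (48 h), 12.31 and 12.87 (60 h), 12.84 and 13.15 (72 h), 13.42 and 13.15 (84 h) and 12.81 and 13.44 (96 h). In all, 9 of 10 RAS-OFF arrays were above every RAS-ON array, and the 60 h replicate 1 lay just under RAS-ON array 4. The change was 1.72 ± 0.31 (SE) on the log2 scale, a 3.30-fold rise, with an adjusted p of 0.000362 in limma.

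Epx encodes eosinophil peroxidase, the haem enzyme of the granule matrix. It read 9.46, 9.83, 8.88, 11.06 and 10.84 on RAS-ON arrays 1 to 5 (0 h). The RAS-OFF pairs read 11.13 and 10.76 (48 h), 10.22 and 11.19 (60 h), 10.95 and 11.81 (72 h), 12.11 and 11.71 (84 h) and 11.29 and 11.95 (96 h). Of these, 7 RAS-OFF arrays were above every RAS-ON array, while both groups overlapped at 48, 60 and 72 h. Epx rose by 1.30 ± 0.31 (SE; adjusted p = 0.0031 in limma).

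Prg3, the gene of a second major basic protein that neighbours Prg2, rose by 1.07 ± 0.23 (SE; adjusted p = 0.00119 in limma). Its RAS-OFF arrays ran from 9.002 (60 h replicate 1) over a median of 9.91 to 10.70 (84 h replicate 1), against 8.65, 8.45, 8.20, 9.54 and 9.37 on RAS-ON arrays 1 to 5. Of the 10 RAS-OFF arrays 7 were above every RAS-ON array. For all 3 granule genes the 60 h replicate 1 was the lowest RAS-OFF array, and 96 h replicate 1 read below 96 h replicate 2. That 96 h replicate 1 read Gapdh, a control of RNA quality, 1.22 log2 units brighter at its 3-prime than at its 5-prime end, against 0.10 to 0.35 on the other arrays. Without it Prg2 changed by 1.78 (adjusted p = 0.000617 in limma), Prg3 by 1.15 (adjusted p = 0.00101) and Epx by 1.36 (adjusted p = 0.00399). Across the 10 RAS-OFF arrays the 3 genes followed each other closely, with Pearson r of 0.96 to 0.97 between pairs; the arrays share their extraction and times, and this describes the arrays.

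The size of these 3 rises depended on which RAS-ON arrays they were set against. RAS-ON arrays 4 and 5 averaged above arrays 1 to 3 by 1.82 for Prg2, 1.56 for Epx and 1.02 for Prg3 on the log2 scale. Set against arrays 4 and 5 alone, Prg2 changed by 0.63 (adjusted p = 0.00565), Prg3 by 0.46 (adjusted p = 0.134) and Epx by 0.36 (adjusted p = 0.276), so that the Prg3 and Epx calls were lost. Set against arrays 1 to 3 alone, the changes were 2.45, 1.48 and 1.92, with adjusted p values of 3.05e-08, 2.95e-05 and 1.45e-05 in limma. Why the RAS-ON arrays form 2 sets is not given in the labels and was not tested. For comparison, the summed intensity of the 11 measured erythroid genes was 27420 to 28011 on arrays 4 and 5 and 27113 to 31927 on arrays 1 to 3, and that of the 8 azurophil granule genes was 62384 to 64090 and 49225 to 60215.

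**Figure D2:**
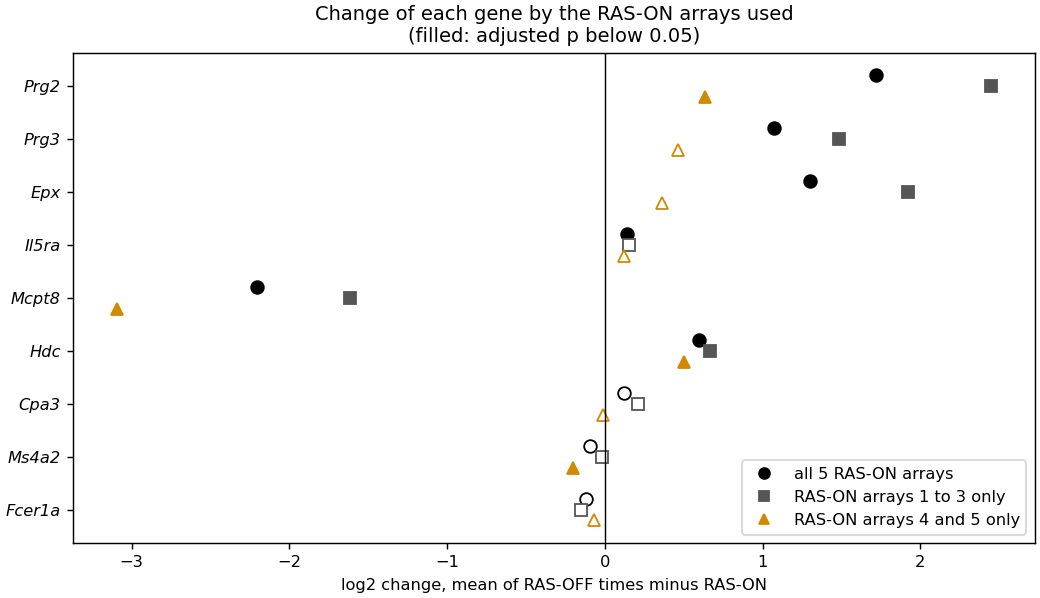
Log2 change of each gene, mean of RAS-OFF times minus RAS-ON (horizontal axis), set against all 5 RAS-ON arrays (circles), arrays 1 to 3 (squares) or arrays 4 and 5 (triangles); filled symbols passed the adjusted p of 0.05. Prg2, Prg3 and Epx are nearer to 0 against arrays 4 and 5 (0.63, 0.46 and 0.36), while Mcpt8 is farther from it (-3.09).

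Il5ra, which encodes the interleukin 5 receptor's alpha chain, was dim, below the array median on all 15 arrays. It ran from 5.43 over a median of 5.59 to 5.74 in RAS-OFF, against 5.37, 5.40, 5.58, 5.52 and 5.45 in RAS-ON arrays. Both groups overlapped, with 5 of 10 RAS-OFF arrays above all RAS-ON arrays. It rose by 0.14 ± 0.05 (SE; adjusted p = 0.0395 in limma), a call that was lost in 13 of 23 alternative settings. It did not pass with only RAS-ON arrays 4 and 5 as controls (0.12, adjusted p = 0.195) or with only arrays 1 to 3 (0.16, adjusted p = 0.0694). Of the 15 arrays, 9 carried the call, each of which ended it when left out: RAS-ON replicates 1, 2 and 5, both 48 h arrays, replicate 2 at 60, 72 and 96 h and replicate 1 at 84 h (adjusted p = 0.0542 to 0.111).

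Mcpt8, a serine protease gene of mouse basophils, was the gene of the 9 called lower. It read 9.12, 9.28, 8.92, 10.58 and 10.58 on RAS-ON arrays 1 to 5 (0 h). The RAS-OFF pairs read 7.46 and 7.44 (48 h), 7.35 and 7.60 (60 h), 7.29 and 7.94 (72 h), 7.57 and 7.61 (84 h) and 7.22 and 7.40 (96 h). All 10 RAS-OFF arrays were below every RAS-ON array, as held for 12.0% of all genes; 9.36% lay wholly above, a pattern that none of the 9 genes showed. Mcpt8 fell by 2.21 ± 0.25 (SE) on the log2 scale, a 4.62-fold difference, with an adjusted p of 3.85e-06 in limma. Its RAS-OFF values lay near the array median, from -0.07 (96 h replicate 1) to 0.65 (72 h replicate 2) log2 units away. The RAS-ON values lay 1.64 (array 3) to 3.35 (array 5) above it. Mcpt8, like the eosinophil granule genes, was higher on RAS-ON arrays 4 and 5, by 1.48, but it moved the other way in RAS-OFF arrays. Set against arrays 4 and 5 it changed by -3.09 and against arrays 1 to 3 by -1.62, with adjusted p values of 2.91e-09 and 6.11e-08.

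Beside Mcpt8, all 8 azurophil granule genes of promyelocytes fell, with summed intensities of 14692 to 21563 in RAS-OFF and 49225 to 64090 in RAS-ON arrays. The part of those cells in the Mcpt8 result was not tested. Of 8 other basophil genes measured, 2 rose, 3 fell and 3 did not pass, with a median of -0.10. Il3ra, the interleukin 3 receptor's alpha chain, fell by 1.14 ± 0.08 (SE) and Cd200r4 fell by 0.71 ± 0.15, while Il18r1, an interleukin 18 receptor chain, rose by 0.97 ± 0.10. Il4 and Il13, cytokines that basophils and mast cells secrete, were below the array median on all arrays and changed by -0.08 (adjusted p = 0.38) and -0.07 (adjusted p = 0.416). Prss34, another basophil protease, was not analysed here.

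Hdc encodes histidine decarboxylase, which makes histamine in basophils and mast cells and is also expressed in immature mouse myeloid cells. Its mean was highest at the first RAS-OFF time and lower at each later one. The levels were 9.08, 9.32, 8.84, 9.27 and 9.22 on RAS-ON arrays 1 to 5 (0 h). The RAS-OFF pairs read 10.44 and 10.33 (48 h), 9.99 and 10.10 (60 h), 9.80 and 9.59 (72 h), 9.41 and 9.39 (84 h) and 9.29 and 9.11 (96 h). The 8 arrays from 48 to 84 h were above every RAS-ON array, and both 96 h arrays lay within the RAS-ON range. Hdc rose by 0.60 ± 0.08 (SE; adjusted p = 1.03e-05) over the mean of the times.

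The second Hdc probe set gave a rise of 0.64 ± 0.09 (SE; adjusted p = 6.59e-05 over all probe sets). It read 8.91, 9.03, 8.90, 9.33 and 9.16 on RAS-ON arrays 1 to 5 (0 h), 10.42 and 10.05 at 48 h and 9.04 and 9.07 at 96 h. Both probe sets thus showed the same course, and both target transcripts of 1 gene.

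Cpa3, the carboxypeptidase of mast cell granules, was not called. It ran from 7.41 over a median of 7.66 to 7.88 in RAS-OFF, against 7.27, 7.72, 7.38, 7.65 and 7.70 in RAS-ON arrays. Both groups overlapped, and the change was 0.12 ± 0.08 (SE; adjusted p = 0.252 in limma). With only RAS-ON arrays 4 and 5 as controls the sign differed, at -0.01 (adjusted p = 0.921).

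The genes of the IgE receptor chains were dim, below the array median on all 15 arrays. Fcer1a, the alpha chain that binds IgE, ran from 4.19 over a median of 4.37 to 4.57 in RAS-OFF, against 4.49, 4.54, 4.47, 4.38 and 4.46 in RAS-ON arrays. The groups overlapped, and the change was -0.12 ± 0.05 (SE; adjusted p = 0.064 in limma). It passed without RAS-ON replicate 4 (adjusted p = 0.0448) or 60 h replicate 1 (0.0311), with arrays centred on their medians (0.0274) and with genes read by the mean of their probe sets (0.0471).

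Ms4a2, the beta chain, gave different results on its 2 probe sets. The brighter one ran from 6.61 over a median of 6.71 to 6.94 in RAS-OFF, against 6.71, 6.67, 6.87, 6.92 and 6.95 in RAS-ON arrays, a change of -0.09 ± 0.06 (SE; adjusted p = 0.236). The other ran from 6.35 over a median of 6.51 to 6.68 in RAS-OFF, against 6.61, 6.82, 6.79, 7.12 and 7.19 in RAS-ON arrays, and fell by 0.41 ± 0.08 (SE; adjusted p = 0.00134 over all probe sets). Of its 10 RAS-OFF arrays 8 were below every RAS-ON array. Averaging both probe sets gave a called change of -0.25 (adjusted p = 0.0058). The call on the brighter probe set depended on the controls: its change was -0.20 (adjusted p = 0.0484) with only RAS-ON arrays 4 and 5, and -0.02 (adjusted p = 0.83) with only arrays 1 to 3.

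The comparison of each RAS-OFF time with RAS-ON asks when the genes differed. All 5 comparisons share the RAS-ON arrays. By limma, 3 of the 9 genes were called at 48 h (27.4% of all genes), 2 at 60 h (25.8% of all), 4 at 72 h (31.8% of all), 5 at 84 h (36.8% of all) and 4 at 96 h (37.6% of all). Mcpt8 was called lower at every time, with changes of -2.24 ± 0.38 (SE) at 48 h and -2.38 ± 0.38 at 96 h. Hdc was called higher at 48, 60 and 72 h, by 1.24 ± 0.11, 0.90 ± 0.11 and 0.55 ± 0.11 (SE). At 84 and 96 h its changes of 0.25 and 0.06 had adjusted p values of 0.103 and 0.744.

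Prg2 was called higher at 48, 72, 84 and 96 h, with changes of 1.52, 1.77, 2.06 and 1.90 ± 0.48 (SE), and had an adjusted p of 0.0503 at 60 h, where the change was 1.36. Epx was called at 72, 84 and 96 h, and Prg3 at 84 and 96 h. At 84 h Epx stood 1.90 ± 0.48 (SE) and Prg3 1.60 ± 0.35 above RAS-ON. Fcer1a was called lower at 84 h alone, by 0.25 ± 0.08 (SE; adjusted p = 0.0186 in limma). With Mcpt8 it made up the 2 genes called lower at 84 h. That number was 1 without 84 h replicate 1, without 84 h replicate 2 and against RAS-ON arrays 4 and 5 alone. Single arrays weighed on these counts. The count at 72 h was 1 without replicate 1 and 2 without replicate 2 of that time, that at 84 h was 3 without replicate 1, and that at 96 h was 1 without replicate 2. Against RAS-ON arrays 1 to 3 alone 6 genes were called at 48 h and 5 at 60 h. Against arrays 4 and 5 alone, 1 gene was called higher and 2 lower at 48 h. The counts there were 2 higher and 1 lower at 72 h, and 3 higher and 1 lower at 84 h. With all 5 RAS-ON arrays they were 2 higher and 1 lower (48 h), 3 and 1 (72 h) and 3 and 2 (84 h), so calls at single times also depended on the set.

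**Figure D3:**
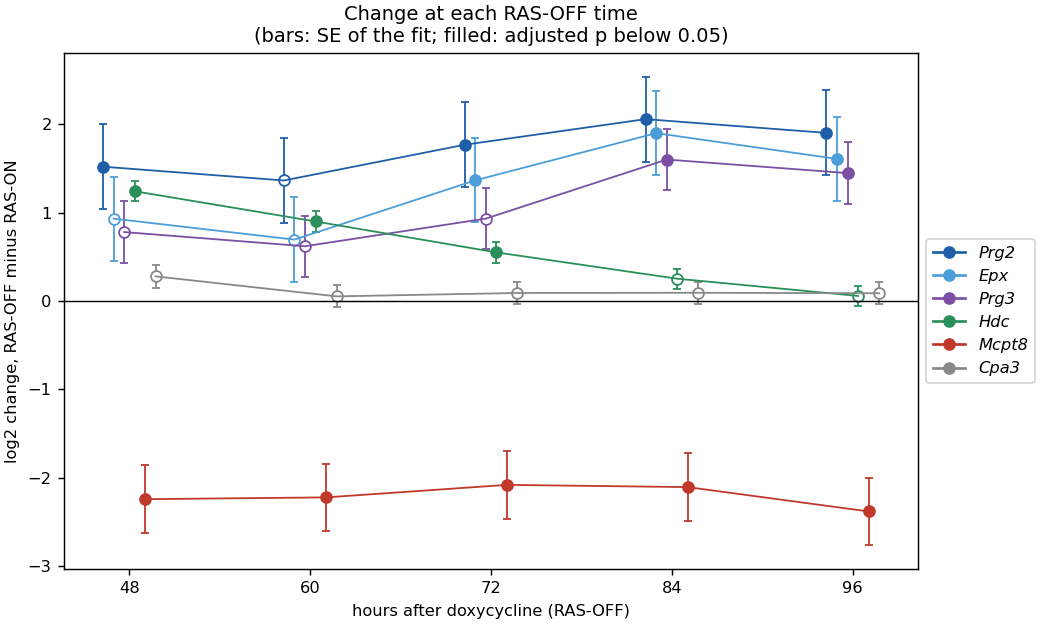
Log2 change against RAS-ON (vertical axis) of 6 genes at 48 to 96 h after doxycycline (horizontal axis); bars are standard errors of the fit and filled symbols passed the adjusted p of 0.05. Hdc declines from 1.24 at 48 h to 0.06 at 96 h, Mcpt8 stays between -2.38 and -2.08, and Prg2, Prg3 and Epx have their highest values at 84 h.

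The slope over the 5 RAS-OFF times, which compares those times with each other, was called for Hdc alone of the 9. Of all genes 5.00% had a called upward slope and 8.75% a called downward one. Hdc fell by 0.30 ± 0.03 (SE) log2 units per 12 h, with an adjusted p of 6.39e-05 in limma, and its second probe set fell by 0.31 ± 0.04. The slope was called in all 24 alternative settings. Prg3 and Epx had slopes of 0.23 ± 0.09 (SE; adjusted p = 0.118) and 0.26 ± 0.13 (adjusted p = 0.216), and Prg2 of 0.15 ± 0.13 (adjusted p = 0.51). With RAS-ON arrays 1 to 3 alone in the estimate of the spread, the slopes of Prg3 and Epx passed (adjusted p = 0.0277 and 0.0412), and with arrays 4 and 5 alone those of all 3 granule genes passed (0.0398 for Prg2, 0.0289 for Prg3 and 0.0262 for Epx). Mcpt8 had a slope of -0.02 ± 0.10 (adjusted p = 0.943). Of 11 measured neutrophil maturation genes, 7 had called downward slopes over these times. Among them Mmp8, neutrophil collagenase, fell by 0.25 per 12 h and Cxcr2, a chemokine receptor gene, by 0.31. Their summed intensity was 127300 to 163860 in RAS-OFF and 109170 to 128270 in RAS-ON arrays, and their part in the Hdc result was not tested.

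Other genes of the eosinophil lineage moved both ways. Of 8 measured, 3 rose, 3 fell and 2 did not pass, with a median of -0.05. Ear3, an eosinophil-associated ribonuclease gene, rose by 1.46 ± 0.23 (SE; adjusted p = 0.000108) and Ccr3, the eotaxin receptor gene, by 1.35 ± 0.07 (SE; adjusted p = 1.91e-09). Ear3 belongs to a family of near-identical genes, so its probe set may read other members. Ccr3 ran from 7.42 to 8.38 in RAS-OFF and from 6.42 to 6.78 in RAS-ON arrays without overlap, and its mean on RAS-ON arrays 4 and 5 was above that on arrays 1 to 3 by 0.06. Ear3 was higher on arrays 4 and 5, by 1.16. Alox15, the third gene that rose, changed by 0.41 ± 0.10 (SE; adjusted p = 0.00294 in limma). Csf2ra, the alpha chain of the GM-CSF receptor, fell by 0.63 ± 0.16 (SE), and Csf2rb, the beta chain shared by the interleukin 3, interleukin 5 and GM-CSF receptors, fell by 0.56. With Csf2rb2 (-0.27), the 3 genes that fell were all receptor chain genes. For Csf2ra the groups overlapped, and its mean on RAS-ON arrays 4 and 5 minus that on arrays 1 to 3 was -0.74. Siglecf, a surface lectin of mouse eosinophils, changed by -0.04 (adjusted p = 0.786) and lay above the array median on 8 of 15 arrays.

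Of 15 other mast cell genes measured, 5 rose, 1 fell and 9 did not pass, with a median of 0.04. Slc18a2, the vesicular transporter that loads histamine into granules, rose by 1.21 ± 0.17 (SE; adjusted p = 3.13e-05), with 5.59 to 7.19 in RAS-OFF and 5.10 to 5.89 in RAS-ON arrays, below the array median on all of them. Kit, the stem cell factor receptor, which progenitors also carry, rose by 0.43 ± 0.10 (SE). Srgn, the granule proteoglycan serglycin, fell by 0.51 ± 0.05 (SE). Among mast cell protease genes, Mcpt1, Mcpt2 and Tpsg1 were below the array median on all 15 arrays, the chymase gene Cma1 was above it on 1, Mcpt4 on 2, the tryptase gene Tpsb2 on 5 and the tryptase gene Tpsab1 on all 15. Mrgprb1, a receptor gene of mast cells, was below it on all 15. Of these dim protease genes, Cma1, Mcpt4 and Mcpt2 were called higher, by 0.34, 0.33 and 0.24 (adjusted p = 0.00177, 0.00291 and 0.00123 in limma). Mcpt1, Tpsg1, Tpsb2 and Tpsab1 were not called. Of the 7 histamine handling genes, 1 rose (Slc18a2, already counted among the mast cell genes), 2 fell and 4 did not pass. The receptor gene Hrh2 fell by 0.55 ± 0.09 (SE) and the receptor gene Hrh3 fell by 0.15 ± 0.05.

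Of 18 measured transcription factor genes of these lineages, 2 rose, 14 fell and 2 did not pass, with a median of -0.40. Gata1, which eosinophils, basophils and mast cells share with erythroid cells and megakaryocytes, rose by 1.61 ± 0.05 (SE). The Cebpb and Cebpa genes, of C/EBP factors in myeloid cells, fell by 1.51 ± 0.08 and 1.48 ± 0.08 (SE). Gata2, which mast cells and basophils require, fell by 0.49 ± 0.06. Beside Gata1, all 11 measured erythroid genes rose, with summed intensities of 69848 to 92104 in RAS-OFF and 27113 to 31927 in RAS-ON arrays; their part in the Gata1 result was not tested.

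Of 13 measured genes for the IgE receptor's gamma chain and its signalling, 10 fell, 1 rose and 2 did not pass, with a median of -0.35. Lat2, an adaptor of this pathway, fell by 2.17 ± 0.06 (SE), Vav1, an exchange factor gene, by 0.65 ± 0.05 and Lcp2, an adaptor gene, by 0.59 ± 0.08. Fcer1g, the gamma chain that other Fc receptors of myeloid cells also use, fell by 0.22 ± 0.05 (SE; adjusted p = 0.00303). These genes are active in most myeloid cells, and the part of each cell type in their change was not tested. Of 14 red pulp macrophage genes 10 rose and 3 fell, with summed intensities of 20489 to 26697 in RAS-OFF and 13883 to 19095 in RAS-ON arrays. Of 11 lymphocyte genes 3 rose and 4 fell, with sums of 3061 to 3948 in RAS-OFF and 3184 to 3521 in RAS-ON arrays. Of 9 leukemia and progenitor genes 3 rose and 4 fell.

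**Figure D4:**
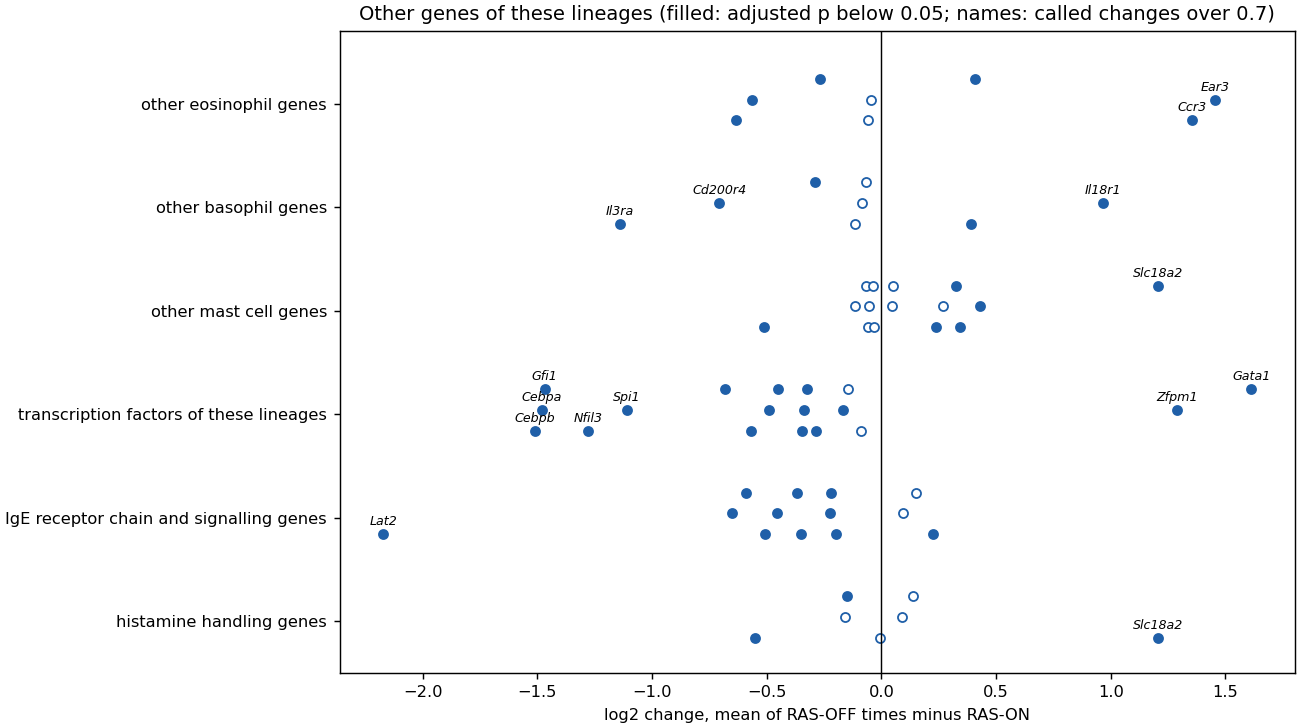
Log2 change, mean of RAS-OFF times minus RAS-ON (horizontal axis), of each measured gene in 6 lists of other genes of these lineages (rows, points spread vertically for legibility); filled points passed the adjusted p of 0.05 and called changes over 0.7 are named. Changes run from -2.17 (Lat2) to 1.61 (Gata1), and 14 of 18 transcription factor genes and 10 of 13 IgE receptor pathway genes are called lower.

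The genes whose values ran most like each member over the 15 arrays were ranked by Pearson r, which here joins the difference between RAS-OFF and RAS-ON with the spread inside each. For Prg2 they were Ear3 (r = 0.97, and 0.98 within the 10 RAS-OFF arrays) and Mecom (0.96 and 0.76), a transcription factor gene of stem cells. For Prg3 and Epx the nearest gene was the other of the pair (0.97, and 0.96 within RAS-OFF arrays), followed by Pdlim1 for Prg3 (0.96 and 0.93) and Tbxas1, thromboxane synthase, for Epx (0.96 and 0.87). For Mcpt8 they were Lair1 (0.98 and 0.53), an inhibitory receptor gene, and Etfb (0.98 and 0.57). For Hdc they were Cpne3 (0.96 and 0.94) and Agap1 (0.96 and 0.95). For the remaining 4 genes, none of which changed by more than 0.15 on the probe set used here, the highest r was 0.81 for Cpa3 (Eml1), 0.90 for Il5ra (Bpifa2), 0.88 for Ms4a2 (Tfap2a) and 0.84 for Fcer1a (Slc25a26).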

How the data were processed

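RNA of leukemic spleen cells was extracted with an RNeasy kit, amplified with MessageAmp III and given a biotin label (source: the labels' protocols). The deposited table holds 1 intensity per probe set and array on a linear scale, made with RMA, per the submitters' processing notes. The sources used here give neither its version nor its settings. RMA gives all arrays like distributions and so hides a shift that most genes share. All 15 value columns were used, and log2 was taken of each value. Of 45101 probe sets, 34945 had 1 gene symbol, 932 several, 9160 none and 64 were controls; each of 18193 genes was read by its brightest probe set, without a filter on dim genes. No detection calls were used, and levels are given against each array's median.

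Groups came from the sample titles. Nothing in the labels says that arrays came from separate animals, so the spread behind each p-value may be technical. limma 3.58.1 in R 4.3.3 fitted 1 mean per group on all 15 arrays (lmFit, default eBayes, two-sided, Benjamini-Hochberg adjustment over all 18193 genes), for the mean of the 5 RAS-OFF times minus RAS-ON, each time against RAS-ON, and a linear slope per 12 h. Probe sets were also fitted singly, adjusted over 34945. On data simulated for RAS-OFF minus RAS-ON over 18193 genes, the fit called 88% of 100 genes given a change of 0.5 (log2) and 100% of 100 given a change of 1, plus 13 others. The simulated noise was independent between arrays, without 2 sets of RAS-ON arrays. These shares are for genes drawn at random and need not hold for genes of wide spread, such as Prg2 and Epx (SE 0.31 each). Tried alternatives were the mean of probe sets, single probe sets, the dimmest 40% of genes left out, median centring, trend and robust eBayes, the replicate block, each array left out, subsets of RAS-ON arrays, and 3 RAS-OFF arrays left out (48, 84 and 96 h replicate 1). Of these 3 arrays only 96 h replicate 1 had a raised Gapdh difference between its ends (1.22). That difference was 0.19 on 48 h replicate 1 and 0.21 on 84 h replicate 1.

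The text names all 9 genes, up to 3 called genes of each list with the largest change, and the 2 genes most like each of the 9 (1 for the last 4); other genes of the lists were picked after their values were seen. The 9 genes, lists and alternatives were chosen with earlier results of these data known.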

Additional observations from a re-analysis of the deposited data

Results flagged for a closer look

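Hdc differed among the RAS-OFF times: the test of the slope itself gave -0.30 log2 units per 12 h (adjusted p = 6.39e-05 in limma). Its levels at 96 h, 9.29 and 9.11, were below all 8 arrays from 48 to 84 h. Within the RAS-ON group none of the 11 probe sets of the 9 genes had an array set apart from the other 4 by Dixon's test. That test looks for a single array and cannot flag arrays that lie together, as RAS-ON arrays 4 and 5 did for Prg2.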

How the results depend on the processing

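The directions of the called changes over the mean of RAS-OFF times held in every alternative run, and Prg2, Mcpt8 and Hdc kept their calls in all 24, with changes of 0.63 to 2.45, -3.09 to -1.62 and 0.50 to 0.67. Prg3 and Epx lost theirs only against RAS-ON arrays 4 and 5. The count of 6 genes called (5 higher, 1 lower) was 8 (5 higher, 3 lower) with the mean of probe sets, 4 (2 higher, 2 lower) against RAS-ON arrays 4 and 5, and 5 to 7 with 1 array left out. With 1 array left out the counts were 2 to 4 (48 h), 2 to 3 (60 h), 1 to 6 (72 h), 3 to 6 (84 h), 1 to 4 (96 h) and 1 for the slope. Against RAS-ON arrays 1 to 3 alone the counts were 6 at 48 h, 5 at 60 h and 3 for the slope; against arrays 4 and 5 alone the slope count was 4. Leaving out 48, 84 and 96 h replicate 1 together, the count at 84 h was 1. The same number in different groups gave no sign of pairing: of 20 distinct correlations of deviations between same-numbered arrays, from -0.31 to 0.24, 2 were above 0.1. With the replicate number as a replicate block, 5 genes were called at 48 h, 5 at 60 h and 4 for the slope. The Ms4a2 change turned to 0.039 in that setting. Replicate numbers 3 to 5 occur only in RAS-ON, so the block fits those arrays exactly. The changes under the block thus set the RAS-OFF arrays against RAS-ON arrays 1 and 2 alone. Directions of uncalled values turned for Cpa3 against RAS-ON arrays 4 and 5 (-0.013), and for slopes near 0: Ms4a2 in the mean of its probe sets (-0.018) and Mcpt8 without those 3 arrays (0.0052). With 1 array left out these slopes ran from -0.0018 to 0.0277 for Ms4a2, from -0.0342 to 0.0020 for Mcpt8 and from -0.00055 to 0.0196 for Il5ra. Why the Cpa3 change and these slopes turned was not tested. With the dimmest genes left out, Il5ra, Ms4a2 and Fcer1a were not among the genes tested. Signal limits what can be said of these 3, which lay under the array median throughout.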
